A study of Mus musculus with 8 samples.

Results

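Olfactory receptor genes, the largest gene family of the mouse genome, were followed through RNA sequencing of brain cultures. Members were all genes whose symbol is Olfr followed by a digit in the deposited tables, found by name and not by level. There were 173 of them among 32705 genes listed in either table, and 140 of these stood among the 31406 genes listed for both groups compared here. The other 33 had 8 counts in all in the A2A antagonist libraries, at most 1 per gene, and are not described further. Of the 140 members, 129 were annotated as protein coding and 11 as pseudogenes of several classes.

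The 8 libraries came from primary microglia of wild-type mice, which the methods of the study describe as cells from the striatum of newborn C57/BL6 pups. All cultures were 15 days old and had been exposed to LPS (lipopolysaccharide) plus interferon-γ for 48 h. In the A2A antagonist group (4 libraries) SCH 58261, an antagonist of the adenosine A2A receptor, was added at 24, 32 and 40 h. In the dual group (4 libraries) 2-Cl-IB-MECA at 200 nM, an agonist of the adenosine A3 receptor, was given together with SCH 58261. The groups follow the sample titles. The treatment field of the labels reads the other way round, with 2-Cl-IB-MECA entered under the titles that lack it, so the direction of every difference rests on the titles, whose grouping is also that of the names of the deposited count columns. The pups came from several pregnant animals and the labels tie no library to an animal, so p-values measure the spread between these libraries, which may be technical.

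Olfactory receptors are G protein-coupled receptors of the sensory neurons of the nose. Each mature neuron uses a single member of the family, the receptor signals through the G protein subunit encoded by Gnal and the adenylate cyclase encoded by Adcy3, and the cyclic AMP made opens a cyclic nucleotide-gated channel. The genes lie in clusters on most chromosomes, and a typical member has its whole coding sequence in 1 exon behind non-coding exons. Some members are known to be transcribed outside the nose, in testis and kidney for example.

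The libraries held 32630602 to 45878639 counts. Between 68 and 81 members had at least 1 count in a library, and the family took 0.0035% to 0.00408% of all counts. The 8 microglia markers, those of the labelled cell type, summed to 903 to 1012 CPM (counts scaled to library size) in the 8 libraries. Markers of other cell types were also found. The 6 astrocyte markers summed to 5155 to 5587 CPM, the 5 fibroblast markers to 1747 to 2201 CPM, the 5 oligodendrocyte markers to 421 to 487 CPM and the 5 ciliated cell markers to 319 to 383 CPM. The 5 neuron markers reached 26.3 to 30.3 CPM and the endothelial markers 34.8 to 44.8 CPM. Levels within a list were uneven. In the antagonist group, microglia markers ran from 1.66 CPM (P2ry12) to 476 CPM (C1qa). Oligodendrocyte markers ran from 1.49 CPM (Mog) to 272 CPM (Olig1), and neuron markers from 0.146 CPM (Rbfox3) to 18.8 CPM (Stmn2). Of the markers of olfactory sensory neurons, Gnal supplied nearly all of a sum of 6.05 to 8.48 CPM, and Cnga2, the channel subunit that defines these neurons, was at 0 in all dual libraries and in 2 antagonist libraries. The methods of the study report nearly pure microglia by labelling of CD11b, a share of cells that summed RNA levels do not measure. In a mixed culture, fewer cells of a type and less RNA per cell cannot be told apart.

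Most members were close to the limit of detection. The median member had 7.5 counts summed over the 8 libraries, 47 members had 3 counts or fewer in all, 25 had counts in a single library and 28 had a count in every library. The tables list no gene with a summed count under 2, so the 140 members are those with at least that much. GENCODE release M21 annotates 1407 genes of this name, and the 140 are 9.95% of them. The share was 11.4% of the 1135 protein coding genes and 4.04% of the 272 pseudogenes.

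To set a background, 85 listed genes were taken from families best known for use outside the brain. These comparators were vomeronasal receptors of both types, bitter taste receptors, trace amine-associated receptors, keratin-associated proteins and beta-defensins. Whether some of them are transcribed in these cultures was not tested. The olfactory receptor genes resembled the comparators for the most part. A count in every library was found for 28 of the 140 members (20%) and 13 of the 85 comparators (15.3%), and a summed count of 16 or more for 34.3% and 30.6%. The median of the mean count per library was 0.938 in the olfactory receptor family and 0.75 in the comparators. The 95th percentile of the comparators, a mean of 17.85 counts per library, was exceeded by 6 members (4.29%), Olfr1372-ps1, Olfr155, Olfr482, Olfr1420, Olfr920 and Olfr99, and by 5 of the 85 comparators themselves (5.88%). The comparators' share is fixed by the definition of a 95th percentile and is no result. It is given as the yardstick for the 4.29% of the members. By count, all but Olfr99 also exceeded the most abundant comparator, Defb1, at 36.9 counts per library. Per length, in FPKM (fragments per kilobase of exon, scaled to library size), the 95th percentile was 0.147 and 8 members lay above it, Olfr159 and Olfr856-ps1 being the additional ones. The highest comparator per length was again Defb1, at 1.01 FPKM. Only Olfr1372-ps1 (2.24 FPKM) and Olfr155 (1.25 FPKM) exceeded it, and Olfr482, next in the family at 0.717 FPKM, did not.

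**Figure D1:**
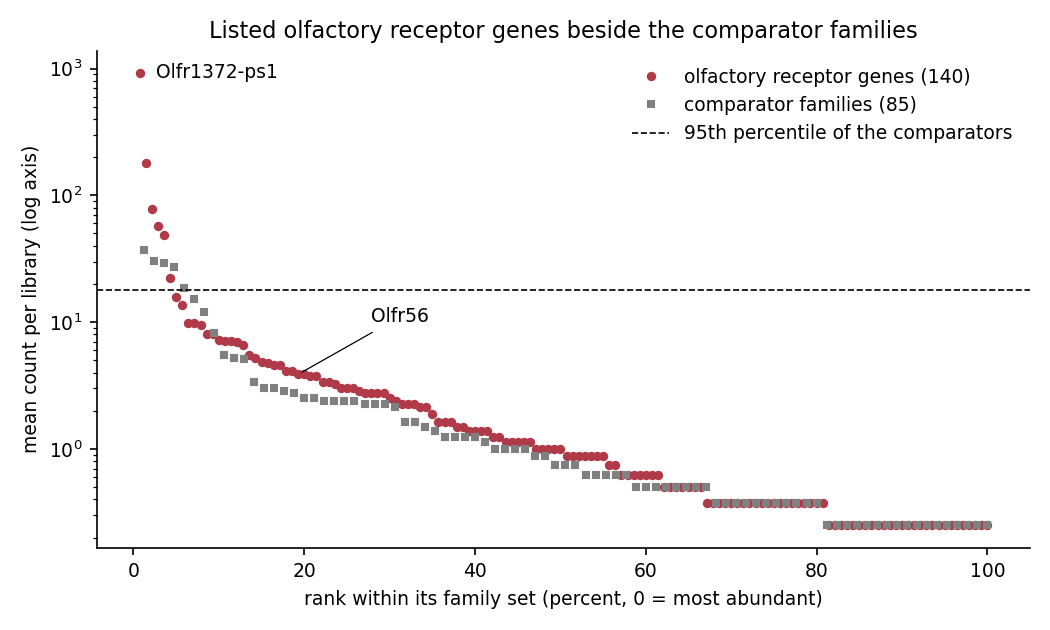
Mean count per library (log axis) of the 140 olfactory receptor genes (red circles) and the 85 comparator genes (grey squares), each ranked within its own set in percent, with the 95th percentile of the comparators as a dashed line. The 2 sets follow a similar slope except at the top, where 6 members lie above the line, Olfr1372-ps1 at 916 counts per library, while Olfr56 lies below it at 3.88.

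The counts of the family were concentrated in a few genes. Olfr1372-ps1 held 58.2% of all 12581 counts and the 5 most abundant members held 81.4%, against 0.246% for Olfr56. By summed count, 8 members had 100 or more, 40 had 16 to 99, 45 had 4 to 15 and 47 had 2 or 3. All 8 members of the first class had counts in every library, and so had 20 of the 40 in the second.

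Olfr1372-ps1 (ENSMUSG00000108218, GRCm38 chr11:52154722-52168159, minus strand), a transcribed unprocessed pseudogene with 9812 exonic bases and no coding sequence, was the most abundant member. Its counts were 850, 953, 949 and 1033 in antagonist libraries 1 to 4 and 729, 886, 887 and 1041 in dual libraries 1 to 4. After scaling, its mean was 22.1 ± 0.835 CPM (SD, n = 4) in the antagonist group and 22.1 ± 1.92 CPM in the dual group. The ranges overlapped and the means were equal to 3 digits, with a log2 fold change of -0.0013 (SE 0.062, edgeR quasi-likelihood adjusted p = 0.995). The gene lies within an intron of the lincRNA gene Gm26551 on the same strand, with 0 shared exonic bases. Gm26551 itself was at 0.353 CPM. Of the 31-base words of Olfr1372-ps1 (runs of 31 bases in its transcripts), 17.8% also occur in the transcripts of other genes. Other olfactory receptor genes hold 8.39%. The part of other genes in the counts of Olfr1372-ps1 was not tested.

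Olfr155 (ENSMUSG00000071000, GRCm38 chr4:43851565-43857595, plus strand) was the most abundant member with a coding sequence. Its counts were 162, 175, 160 and 216 in the antagonist libraries and 148, 185, 190 and 212 in the dual libraries. Per length it stood second in the family at 1.25 FPKM, behind Olfr1372-ps1 at 2.24 FPKM. Other genes hold 12.4% of the 31-base words of Olfr155. The mean level was 4.15 ± 0.433 CPM in the antagonist group and 4.58 ± 0.325 CPM in the dual group, and the ranges overlapped. The log2 fold change was 0.14 (SE 0.108, edgeR adjusted p = 0.644), the lowest adjusted p of the members tested. Reck, an inhibitor of matrix metalloproteinases expressed at 89.5 CPM, begins 17935 bases after the end of Olfr155 on the same strand.

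Olfr482 (ENSMUSG00000059031, GRCm38 chr7:108092999-108097586, minus strand) ranked next, with counts of 87, 92, 66 and 70 in the antagonist libraries and 69, 60, 88 and 93 in the dual libraries. Much of its exonic sequence is not its own. Of its 31-base words, 56.5% also occur in the transcripts of other genes, and 974 of them in those of Ramac (ENSMUSG00000038646, GRCm38 chr7:81762925-81769491, plus strand), which encodes an activator of the mRNA cap methyltransferase. Ramac, named Rammet in the deposited tables, stood at 33.6 ± 1.61 CPM in the antagonist group and 33.5 ± 3.39 CPM in the dual group. The longest identical stretch ran for 210 bases, and 357 exonic bases of Olfr482 also overlap Gm44870, a processed pseudogene on the same strand. The 30 transcript bases at the end of that stretch are shown because a read lying wholly inside the stretch has the same sequence in both genes. They are written 5′ to 3′ from GENCODE M21 transcripts, with the last 20 shared bases in capitals and the first 10 bases in which the transcripts part in lower case.
Olfr482: TTAGAGGTAGGGATAACAGAggatggccaa
Ramac: TTAGAGGTAGGGATAACAGAcgaggatggc
The level given for Olfr482 (1.85 ± 0.348 CPM in the antagonist group and 1.93 ± 0.25 CPM in the dual group) is therefore uncertain. Its log2 fold change was 0.06 (SE 0.17, edgeR adjusted p = 0.923), and the part of Ramac or its copies in the counts was not tested.

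Olfr1420 (GRCm38 chr19:11886565-11898079, plus strand) had counts of 47, 53, 51 and 77 in the antagonist libraries and 38, 64, 67 and 58 in the dual libraries. Other genes hold 0.29% of its 31-base words, the smallest share among the protein coding members above the comparators' 95th percentile. Olfr920 (GRCm38 chr9:38752299-38760117, plus strand) had counts of 64, 54, 50 and 48 and of 38, 47, 49 and 37. The groups overlapped for both genes. Their log2 fold changes were 0.08 (SE 0.19, edgeR adjusted p = 0.902) for Olfr1420 and -0.25 (SE 0.206, adjusted p = 0.669) for Olfr920. Patl1, an mRNA decay factor at 52.6 CPM, begins 14320 bases after the end of Olfr1420, and Vwa5a at 159 CPM ends 8962 bases before the start of Olfr920, both on the strand of the receptor gene.

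Olfr99 (GRCm38 chr17:37279043-37283460, minus strand), near H2-M3 in the major histocompatibility complex, was the lowest of the 6 members above that percentile by count, at a mean of 22.4 counts per library. It had 29, 15, 20 and 23 counts in the antagonist libraries and 34, 21, 15 and 22 in the dual libraries. The remaining members that passed the low-count filter were Olfr1318 (9 to 28 counts in the antagonist libraries and 11 to 21 in the dual libraries), Olfr753-ps1 (8 to 17 and 9 to 19), Olfr856-ps1 (4 to 19 and 9 to 15) and Olfr461 (3 to 15 and 2 to 14). In these the spread within a group covered most of the range of both groups. Olfr1366 (6 to 11 and 5 to 15 counts) and Olfr1417 (3 to 15 and 4 to 15 counts) were among the 12 most abundant members but did not pass the filter.

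**Figure D2:**
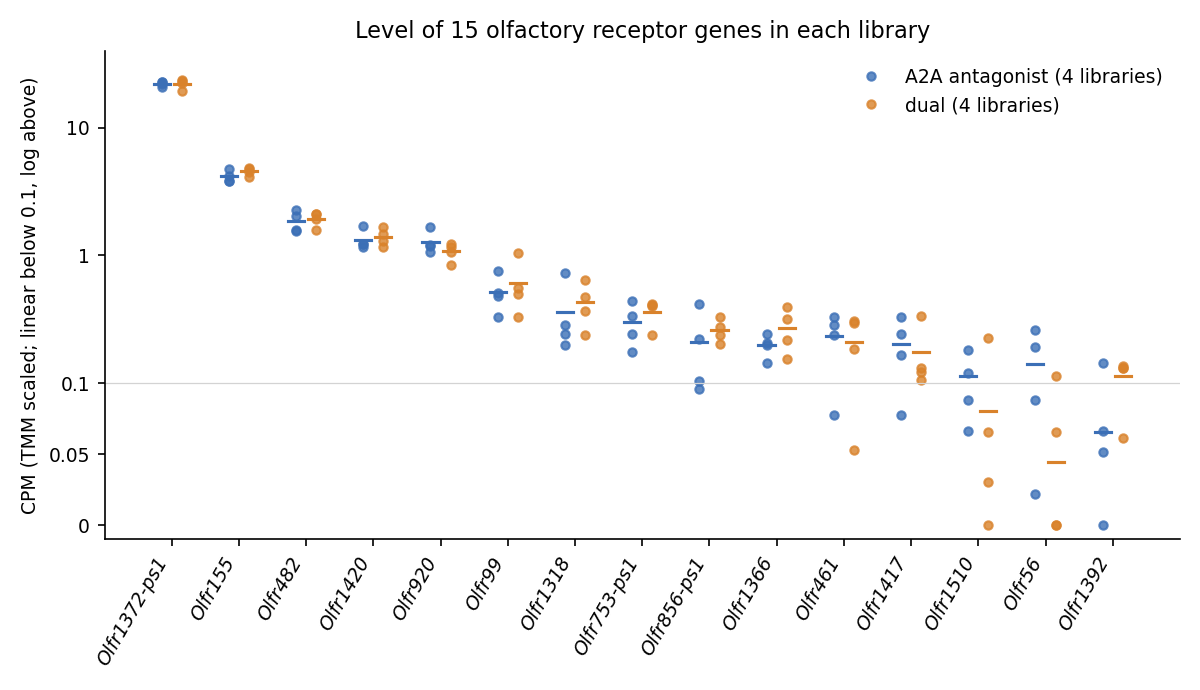
CPM (TMM scaled; linear axis below 0.1 and log axis above) of 15 olfactory receptor genes in the 4 A2A antagonist libraries (blue) and 4 dual libraries (orange), with points for libraries and bars for group means, ordered by mean level. The 2 groups overlap in each of the 15 genes, and Olfr56 is at 0 in 2 dual libraries.

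The dual group was then compared with the antagonist group, which asks what an A3 agonist adds to an A2A antagonist. Of the 140 members, 10 passed the filter on low counts (7.14%, against 59.7% of all listed genes). None of the 10 was called at an edgeR adjusted p under 0.05 and none had an unadjusted p under 0.05, while 39 of the 18756 genes tested were called (0.208%) and 2400 had an unadjusted p under 0.05 (12.8%). DESeq2 also called 0 of the 10, gave an adjusted p to 1 of them, and gave an unadjusted p under 0.05 to 0. Called members were 0 in the direction of higher in the dual group (0.048% of all genes) and 0 in the direction of lower (0.16%). Among the 10, the estimate was higher under the dual treatment in 7 and lower in 3. Their median log2 fold change was 0.11, against 0.004 over all genes tested. The farthest from 0 was Olfr753-ps1 at 0.31 (SE 0.355, edgeR adjusted p = 0.775).

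Single members were also compared by exact permutation (two-sided, 70 ways of dividing the libraries), for which the smallest p is 0.0286. Of the 48 members with 16 or more counts, those that passed the filter included, 0 had groups that did not overlap, against 6.46% of the 23947 genes with that many counts and 3.35% of the 6027 genes with 16 to 99 counts. The smallest p was 0.0857 and was that of Olfr156, among others. In an edgeR fit of all genes without the filter, 0 of 140 members were called (1.17% of all genes were) and 5 had an unadjusted p under 0.05 (9.99% of all genes had). The lowest adjusted p was 0.293.

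**Figure D3:**
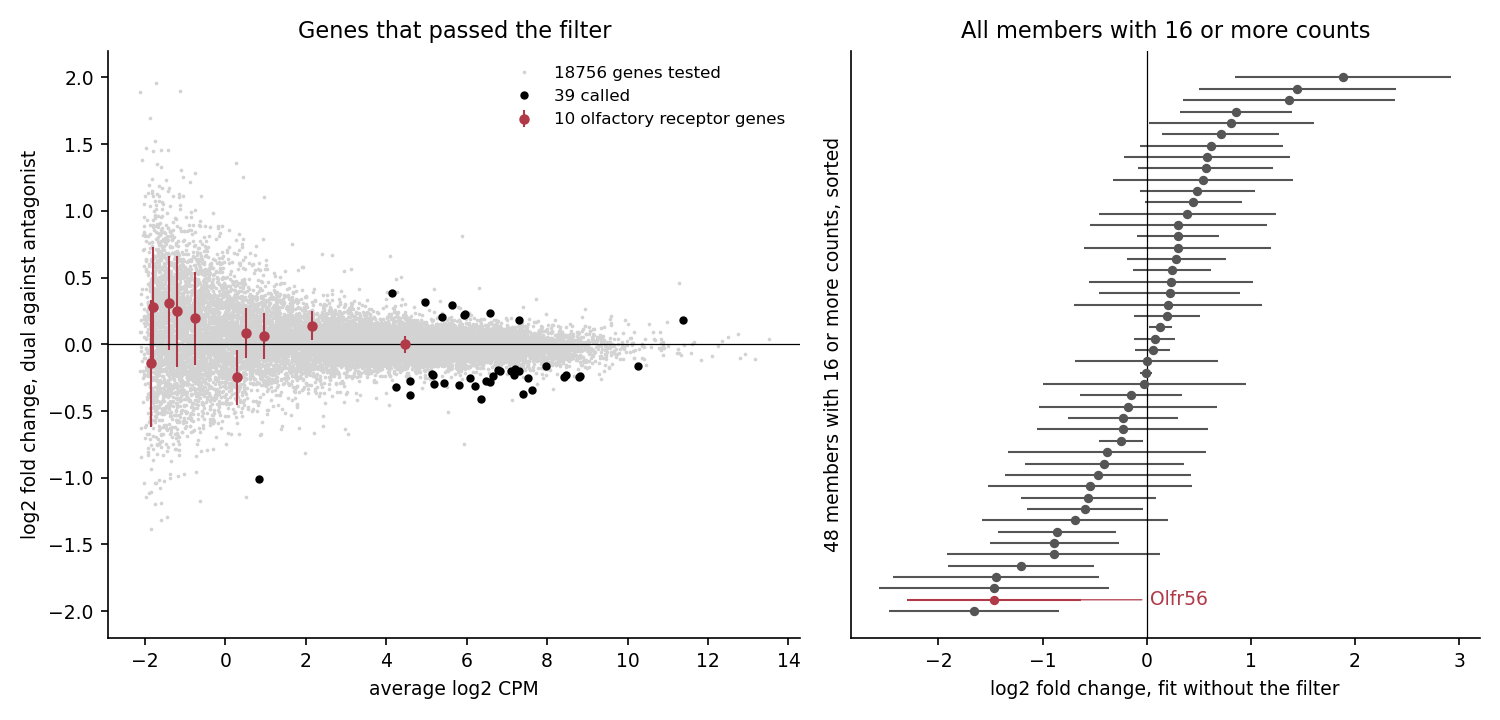
Left, log2 fold change of the dual against the antagonist group by average log2 CPM for 18756 genes (grey), the 39 called (black) and the 10 olfactory receptor genes tested (red, bars are SE). Right, log2 fold change and SE of the 48 members with 16 or more counts from the fit without the filter, sorted, with Olfr56 in red at -1.47, next to the lowest value of -1.66. None of the members shown was called.

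The summed level of the family was similar in both groups. All 140 members together reached 37.5 ± 1.87 CPM in the antagonist group and 38.3 ± 2.56 CPM in the dual group. Without Olfr1372-ps1 the sums were 15.4 ± 1.49 CPM and 16.2 ± 0.731 CPM, and for the 130 members that did not pass the filter they were 5.22 ± 0.474 CPM and 5.38 ± 0.668 CPM. The library ranges overlapped in each case.

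Olfr56 (ENSMUSG00000040328, GRCm38 chr11:48978889-49135387, plus strand) belonged to the low, scattered part of the family. It had 10, 4, 8 and 1 counts in antagonist libraries 1 to 4 and 0, 0, 3 and 5 in dual libraries 1 to 4, 31 in all. The antagonist libraries ran from 0.022 to 0.259 CPM and the dual libraries from 0 to 0.113 CPM, and the ranges overlapped. A count of 0 allows up to 3 counts, or 0.0919 CPM in dual library 1 and 0.0789 CPM in dual library 2, which is above the level of antagonist library 4. These limits and levels cover counting error only.

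The mean of Olfr56 was 0.14 ± 0.106 CPM in the antagonist group and 0.0445 ± 0.0549 CPM in the dual group, a difference of -0.0955 CPM (two-sided exact permutation p = 0.2, n = 4 and 4). Fitted with all genes and no filter, Olfr56 had a log2 fold change of -1.47 (SE 0.833, edgeR adjusted p = 0.567). The estimate moved between -2.34 without dual library 4 and -1.02 without antagonist library 1, and none of these fits called it. No difference in Olfr56 was detected.

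Set against the family, Olfr56 was 27th of 140 by mean CPM and 42nd per length, at 0.0202 FPKM. That is below the comparators' 95th percentile of 0.147 FPKM. Its neighbours in the order of CPM were Olfr1510 above (7, 4, 5 and 3 counts in the antagonist libraries and 1, 0, 3 and 10 in the dual libraries) and Olfr1392 below (2, 3, 6 and 0 and then 2, 5, 6 and 6), and the libraries of all 3 genes overlapped. Among the 48 members with 16 or more counts, log2 fold changes ran from -1.66 to 1.88 with a median of 0.07, 26 higher and 22 lower in the dual group. Olfr156 was the 1 member with a lower estimate than Olfr56, and 11 of the 48, Olfr56 included, had an exact permutation p no higher than its own. A library without any count was found in 20 of the 48 members. A band of 20 to 45 counts, chosen after the values were seen, held 2890 genes, Olfr56 included. Of these, 61 (2.11%), Olfr56 among them, had an estimate at or below that of Olfr56. Of the 24 members in the band 2 did, Olfr56 itself and Olfr156.

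The gene model of Olfr56 is unusual in its span. Its 8 exon blocks hold 4537 bases, of which 945 (20.8%) are coding, and all coding bases lie in the last block, 155284 bases after the first. Tgtp1, Tgtp2 and Ifi47, genes of interferon-inducible GTPases, lie inside this span. Exon block 3 of Olfr56 (GRCm38 chr11:49087034-49087144, plus strand) is a non-coding exon of 111 bases that is wholly shared with an exon of Ifi47 on the same strand. A summed count per gene cannot say from which block the 31 counts came, and how the counting treated reads in the shared block is not given in the sources used here. The 30 transcript bases around the end of the shared stretch of 113 bases are shown, 5′ to 3′ from GENCODE M21, with the last 20 shared bases in capitals and the first 10 that tell the transcripts apart in lower case.
Olfr56: TTCTACTTCTTGGATCTGAGacaagaaggg
Ifi47: TTCTACTTCTTGGATCTGAGcttccctggt

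Ifi47 (ENSMUSG00000078920) stood at 43.8 FPKM, against 0.0202 FPKM for Olfr56. Its level was 117, 112, 122 and 115 CPM in the antagonist libraries and 104, 99.5, 102 and 102 CPM in the dual libraries. The groups did not overlap and the log2 fold change was -0.19 (SE 0.0361, edgeR adjusted p = 0.0311). The call was lost without antagonist library 2 (adjusted p = 0.0608), antagonist library 3 (0.0937), antagonist library 4 (0.0932), dual library 2 (0.0723) or dual library 3 (0.0894), and with replicate number as a block (0.0778). The 8 microglia markers summed to 935 to 1012 CPM against 903 to 936 CPM. C1qa, lower in the dual group at 476 ± 29.6 CPM against 403 ± 11.6 CPM, was the 1 called (0.208% of all genes were). The estimate was higher in the dual group in 3 of the 8 and lower in 5, with a median log2 fold change of -0.02. Csf1r was among the higher ones, at 218 ± 5.46 CPM against 235 ± 8.17 CPM. Tgtp1 (51.3 ± 4.33 CPM against 45.5 ± 2.24 CPM, adjusted p = 0.18) and Tgtp2 (59.2 ± 4.45 CPM against 52.9 ± 2.89 CPM, adjusted p = 0.191) were not called. The part of Ifi47 reads in the Olfr56 count was not tested.

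**Figure D4:**
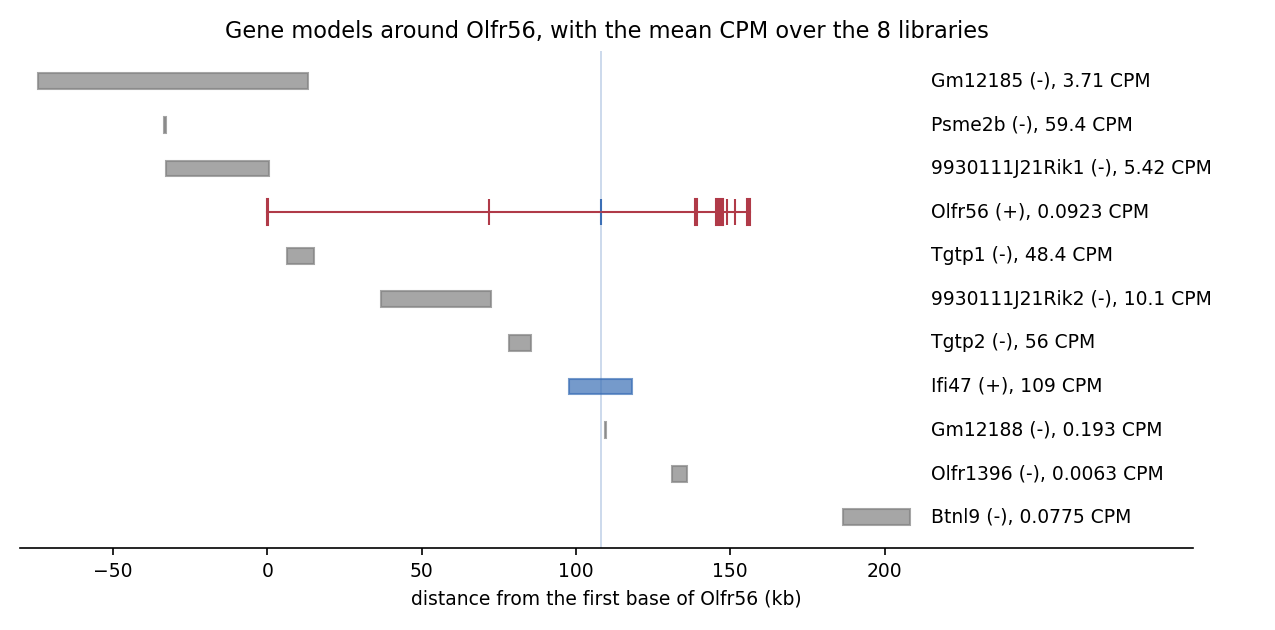
Gene models around Olfr56 to scale by distance in kb from its first base, with strand and mean CPM over the 8 libraries; blocks of Olfr56 are exons (red, the one shared with Ifi47 in blue) and bars are whole spans of other genes. Outlines keep short exons visible, and genes under 0.05 CPM other than Olfr1396 are left out. Ifi47, at 109 CPM, overlaps a middle exon of Olfr56, at 0.0923 CPM.

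RefSeq, on GRCm38.p6, gives starts for 106 of the 140 members. For Olfr56 the RefSeq start is the first base of the last, coding block, so that the 250 bases before it lie inside the longer gene model of the deposited tables, whereas for Ifi47 both sources begin at the same base. For Olfr155 the RefSeq start lies 2727 bases after the first base of the gene model. The windows are shown, 5′ to 3′, because the start of the transcript, and so of the promoter, depends on which gene model is used. Capitals mark a match on either strand to TATAAA, the sequence of the TATA box, anywhere in the window. The match of Ifi47 lies close to the RefSeq start. Those of Olfr56 and Olfr155 lie farther before it, and that of Olfr155 is on the opposite strand. Whether any match acts as a TATA box was not tested.
Olfr56, chr11:49133923-49134172, plus strand: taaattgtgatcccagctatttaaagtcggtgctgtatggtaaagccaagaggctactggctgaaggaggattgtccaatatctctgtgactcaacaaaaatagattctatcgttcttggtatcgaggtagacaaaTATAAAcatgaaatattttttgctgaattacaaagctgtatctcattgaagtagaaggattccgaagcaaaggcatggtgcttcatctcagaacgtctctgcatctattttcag
Ifi47, chr11:49076337-49076586, plus strand: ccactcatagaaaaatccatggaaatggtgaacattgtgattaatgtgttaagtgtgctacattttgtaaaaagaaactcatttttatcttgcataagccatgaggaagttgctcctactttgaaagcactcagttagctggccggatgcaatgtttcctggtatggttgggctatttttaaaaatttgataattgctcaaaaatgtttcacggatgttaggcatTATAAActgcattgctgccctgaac
Olfr155, chr4:43854042-43854291, plus strand: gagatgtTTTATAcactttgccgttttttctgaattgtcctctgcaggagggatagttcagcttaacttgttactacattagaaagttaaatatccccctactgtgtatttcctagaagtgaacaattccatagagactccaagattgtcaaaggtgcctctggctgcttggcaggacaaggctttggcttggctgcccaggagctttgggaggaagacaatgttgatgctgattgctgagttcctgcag
TATAAA was found in 12.4% of all 32851 windows of this length, in 39.2% of the 948 windows of olfactory receptor genes and in 27.4% of the 106 listed members. TAATTA, of the kind bound by Lhx2, stood in 4.84% of all windows, 18% of those of olfactory receptor genes and 13.2% of the listed members'. CCCNNGGG, the Ebf core, stood in 11.8%, 2.74% and 5.66%. The base composition of the windows was not taken into account, and windows can lie inside the deposited gene model. In all 12 named members with a window, the RefSeq start lay 497 to 155284 bases from the start of that model. The windows of olfactory receptor genes may thus hold transcribed or intronic sequence rather than promoters. Their motif shares and those of all windows may not compare like with like. TATAAA was the one motif of these found in the windows printed.

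The members with counts were not spread evenly over the genome. With clusters defined as runs of annotated family genes less than 500000 bases apart, 37 of 68 clusters held a listed member. On chromosome 4 (43.7 to 43.9 Mb) 7 of 8 annotated genes were listed, Olfr155 and Olfr159 among them, and on chromosome 14 (52 to 52.5 Mb) 7 of 8 were listed, each with 16 or more counts. The large cluster on chromosome 2 (85.3 to 90.4 Mb) had 5 of 287 genes listed (1.74%), the class I receptor cluster on chromosome 7 (102 to 105 Mb) 20 of 156 (12.8%), and the cluster next to the major histocompatibility complex on chromosome 17 (37.1 to 38.3 Mb) 19 of 58 (32.8%).

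Summed over its members, the chromosome 14 cluster (Olfr1507 to Olfr1513) had 40, 17, 22 and 31 counts in the antagonist libraries and 19, 20, 25 and 30 in the dual libraries. The chromosome 17 cluster had 66, 45, 72 and 59 and then 67, 48, 56 and 72 counts. The cluster of Olfr56 on chromosome 11 had 19, 23, 22 and 8 and then 10, 9, 12 and 19 counts. The ranges of the 2 groups overlapped in CPM in these and in the other clusters with 5 or more listed members.

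Listed members also lay closer to other transcribed genes. The distance to the nearest gene outside the family with at least 1 CPM had a median of 16.1 kb for the 10 members that passed the filter, 24.0 kb for the 48 with 16 or more counts, 57.2 kb for the 92 listed with fewer, and 268 kb for the 1267 annotated genes not listed for both groups. A gene of this kind lay within 50 kb of 62.5% of the members with 16 or more counts and of 12.5% of those not listed. Exonic length differed less, with a median of 3180.5 bases for listed members and 2447 bases for the others. Exons shared with another gene were found in 11 of the 140 members, 8 on the same strand and 3 on the opposite strand.

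The genes that olfactory receptors need in the nose were present in part. Of 15 genes of olfactory signalling, all were listed and 10 passed the filter. Gnb1, encoding a G protein β subunit of many receptors, stood at 105 FPKM, Arrb2, encoding β-arrestin 2, at 32.2 FPKM, Ric8b, a chaperone of the G protein α subunit of olfactory neurons, at 5.85 FPKM, Adcy3 at 2.1 FPKM and Gnal at 1.17 FPKM. The genes more particular to olfactory neurons were low: Omp, the olfactory marker protein, stood at 0.0902 FPKM, Gng13 at 0.0261 FPKM, Cnga4 at 0.0179 FPKM, Stoml3 at 0.0177 FPKM and Cnga2 at 0.00618 FPKM, all below the 0.147 FPKM of the comparators' 95th percentile.

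None of the 10 signalling genes tested was called between the groups (0.208% of all genes were). The estimate was higher under the dual treatment in 3 and lower in 7, and the median log2 fold change was -0.04. Gnal had 275, 323, 259 and 281 counts in the antagonist libraries and 272, 247, 264 and 310 in the dual libraries (log2 fold change 0.04, SE 0.106, edgeR adjusted p = 0.91). Adcy3 had 483, 561, 566 and 653 and then 477, 470, 594 and 579 counts (0.00, SE 0.0713, adjusted p = 0.992). Ano2, the calcium-activated chloride channel, was the 1 gene of the 10 with an unadjusted p under 0.05, which 12.8% of all genes had. Ano2 stood at 3.76 ± 0.339 CPM in the antagonist group and 3.03 ± 0.436 CPM in the dual group (log2 fold change -0.31, SE 0.13, edgeR adjusted p = 0.314).

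A second list of 13 genes covered transport of receptors to the cell surface and the choice of a single receptor gene. Of its members 11 were listed and 10 passed the filter. Rtp4, a receptor transporting protein that interferon induces, stood at 91.5 FPKM, Reep1 at 19.9 FPKM and Lhx2, a homeodomain factor that binds receptor enhancers in olfactory neurons, at 14.6 FPKM. Rtp1, the transporter most tied to olfactory receptors, stood at 0.0235 FPKM. The list had 3 higher and 7 lower estimates and a median log2 fold change of -0.02. Of the 10 tested, 0 were called (0.208% of all genes were) and 3 had an unadjusted p under 0.05 (12.8% of all genes had). Those 3 were Atf5 (-0.14, SE 0.0492, edgeR adjusted p = 0.205), Ddit3 (-0.13, SE 0.0545, adjusted p = 0.335) and Rtp4 (-0.08, SE 0.0357, adjusted p = 0.342). Atf5 and Ddit3 encode stress-responsive transcription factors, and Atf5 also acts in the feedback that fixes receptor choice.

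**Figure D5:**
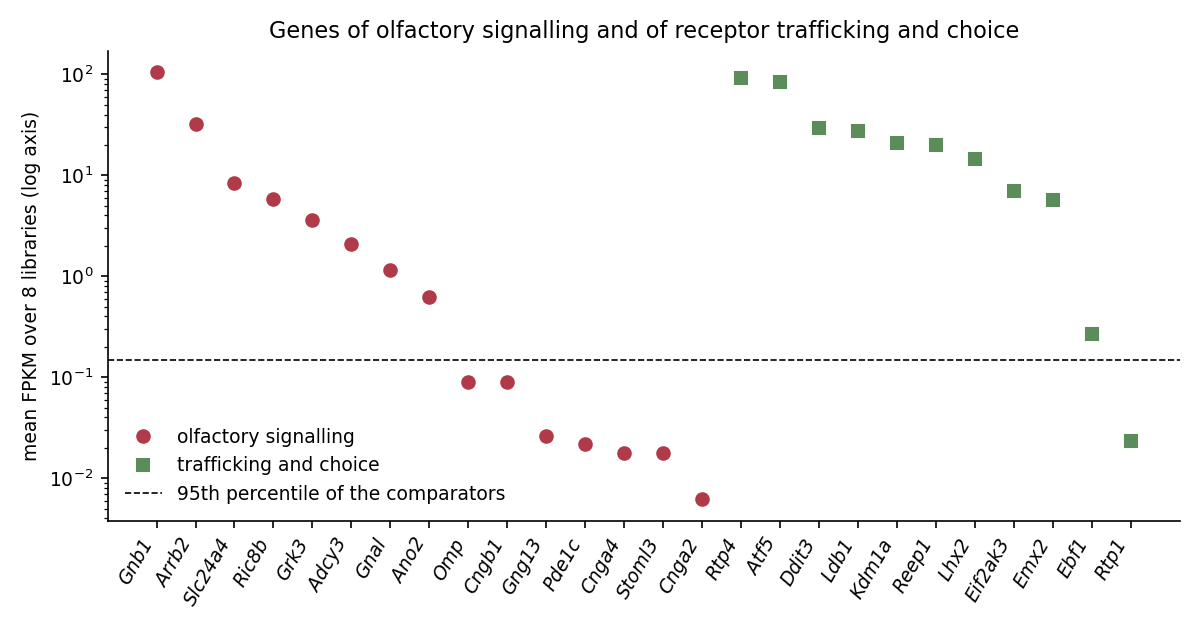
Mean FPKM over the 8 libraries (log axis) of the listed genes of olfactory signalling (red circles) and of receptor trafficking and choice (green squares), with the comparators' 95th percentile of 0.147 FPKM as a dashed line. Gnal and Adcy3 lie above the line and Omp, Cnga2, Cnga4, Stoml3, Gng13 and Rtp1 below it.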

How the data were processed

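RNA of 8 cultures (4 per group) was sequenced from poly-A selected libraries. Per the labels, featureCounts 1.5.0-p3 counted reads on mm10; strand use is not settled by the sources used here. The deposited tables hold raw counts per gene, and FPKM values that the authors computed from them by merged exon length. They also hold the authors' fold changes and p-values, and 9 per-sample columns of control libraries outside this series, none used here. The members and lists were chosen with earlier results of these data known.

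The test used edgeR 4.0.16 under R 4.3.3 on the counts (filterByExpr, minimum count 10, TMM scaling, quasi-likelihood F test, Benjamini-Hochberg over all genes tested; SE from the F statistic), after a test on simulated data. Genes with an adjusted p under 0.05 are called. Members below the filter were compared by an exact permutation test of mean CPM (TMM scaled). DESeq2 1.42.0, other scalings and filters, the replicate block and omission of each library were alternatives. Named members were those that passed the filter, the 12 most abundant, Olfr56 and its neighbours in rank; Olfr156, Olfr159 and the Olfr482 partner were named after their values were seen. Gene models are GENCODE M21 (GRCm38), which matched all 140 members, and promoter windows are RefSeq's. Depth (32630602 to 45878639 counts per library) sets the limit of 3 counts that a count of 0 allows.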

Additional observations from a re-analysis of the deposited data

Results flagged for a closer look

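Among 80 groups of 4 libraries examined, 6 held a library far from the other 3 by Dixon's ratio, above the critical value of 0.829, a flag that chance gives to about 1 in 20 groups. Olfr1420 stood at 1.69 CPM in A2A antagonist library 4, against 1.16 to 1.22 CPM in the others. Olfr1318 stood at 0.725 CPM in antagonist library 1, against 0.198 to 0.287 CPM. Olfr753-ps1 was at 0.236 CPM in dual library 2, against 0.398 to 0.414 CPM. Olfr1417 was at 0.338 CPM in dual library 4, against 0.105 to 0.131 CPM. Olfr1392 was at 0.0613 CPM in dual library 1, against 0.131 to 0.135 CPM. Gnb1 was at 472 CPM in antagonist library 3, against 453 to 455 CPM. The 6 values fell in 6 different libraries.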

How the results depend on the processing

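No olfactory receptor gene tested was called with another scaling, other filters, DESeq2, the replicate block or a library left out. The unfiltered fits with the block or with a library left out were read for Olfr56 only, and did not call it. The number of members tested was 140 without the filter and 5 with a minimum count of 30, and 9 to 14 when a library was left out. Over all genes, 39 were called (9 higher and 30 lower in the dual group), against 374 (114 and 260) by DESeq2 and 366 (113 and 253) without the filter. Leaving out a library gave 0 to 172 calls (0 to 46 higher and 0 to 126 lower), with 0 without antagonist library 4 or dual library 3. The replicate numbers shared by the groups did not pair the libraries (correlations of deviations -0.0529 to 0.0408), and the replicate block gave 17 calls (3 and 14); Olfr56 under the block had a log2 fold change of -1.48 (edgeR adjusted p = 0.867). By count, the number of members above the comparators was 6 at the 95th percentile and 5 at the 99th percentile or the highest comparator. Members counted in every library were 28, and 14 or 6 with a minimum of 3 or 10 counts. In the trafficking list 1 gene, Atf5, was called without the filter (1.17% of all genes were). Limits: Olfr56 and most members rest on a few counts per library, so only large differences could be seen. Leaving out a library gave log2 fold changes of either sign for Olfr1372-ps1 (-0.03 to 0.06), Olfr482 (-0.02 to 0.17), Olfr1420 (-0.01 to 0.23), Olfr99 (-0.17 to 0.42) and Olfr461 (-0.41 to 0.16), and a difference of either sign for Olfr1417 (-0.0848 to 0.0117 CPM). Olfr1318 reached 0.80 without antagonist library 1. The cause of these shifts was not tested.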

Other observations

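Some members known for use outside the nose were among the listed genes, chosen here after their values were seen. Olfr16, a receptor of sperm, had 3 counts in all, and Olfr544, described in metabolic tissues, had 10. Olfr1393, described in kidney, had 2, 15, 4 and 7 counts under the A2A antagonist and 2, 2, 2 and 5 in the dual libraries (two-sided exact permutation p = 0.229, n = 4 and 4). Olfr111 had 1, 1, 10 and 1 counts in the antagonist libraries and 2, 2, 0 and 0 in the dual libraries, so that antagonist library 3 held most of its 17 counts. Its close relative Olfr110 had 3 counts in all. Olfr156, beside Olfr155 on chromosome 4, had 7, 6, 2 and 9 counts in the antagonist libraries and 0, 1, 3 and 3 in the dual libraries (two-sided exact permutation p = 0.0857, n = 4 and 4), and the groups overlapped.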
